A study of Homo sapiens with 7 samples.

Results

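The 49 genes examined here encode the ligands, receptors, extracellular antagonists, SMAD proteins and nuclear partners of the transforming growth factor-beta (TGF-beta) and bone morphogenetic protein (BMP) pathways, with the ID genes as immediate targets. They were chosen by gene name. Every non-control probe whose name on the array was one of the 49 symbols was taken, which gave 60 of the 42405 probes and 49 of the 34809 gene names. Expression was measured in ACHN, a cell line derived from a human renal cell adenocarcinoma. All cells had been infected with a pBabe-hygro retrovirus and selected with hygromycin. The virus was empty in 4 samples (EV 1 to EV 4), and in 3 samples (HOTAIR 1 to HOTAIR 3) it carried the cDNA of HOTAIR, a long noncoding RNA transcribed from the HOXC cluster that binds Polycomb repressive complex 2. The labels and methods name no added TGF-beta or BMP ligand, and the culture medium contained fetal bovine serum. Neither source says whether the samples of a group came from separate infections or cultures. The p-values therefore measure only the spread between these samples, which may be technical. The question asked of the arrays was which genes respond to HOTAIR.

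TGF-beta, activin and BMP ligands are secreted dimers that bring together type I and type II serine/threonine kinase receptors. The type I receptor then phosphorylates receptor SMADs, namely SMAD2 and SMAD3 for TGF-beta and activin, and SMAD1, SMAD5 and SMAD9 for BMP, which enter the nucleus with SMAD4. Latent binding proteins, follistatins and BMP antagonists act outside the cell, while inhibitory SMADs, SMURF ubiquitin ligases and the SKI and TGIF corepressors act inside it. In renal epithelium the pathway is known for its part in fibrosis and in the epithelial to mesenchymal transition.

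HOTAIR itself followed the labels. Its probe (chromosome 12, 54356661 to 54356720 on hg19, minus strand) lay at -6.69 ± 0.39 (SD, n = 4) in EV and at -2.98 ± 0.35 (SD, n = 3) in HOTAIR, in log2 signal minus the 75th percentile of the array, the scale used throughout. The limma adjusted p was 0.00162. The probe was well above background on none of the EV arrays and entered the test through the HOTAIR arrays alone. The difference is therefore given as an approximate lower bound of 9.46-fold. The bound sets the HOTAIR arrays against the lowest signal of any probe well above background on each EV array. Where the HOTAIR probe's own signal was higher, that signal was used. By real-time PCR the paper reported a smaller fold for these cells.

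The arrays had similar brightness. The 75th percentile of the processed intensity ran from 523 to 649, and between 48.7% and 52.2% of the probes were well above background. No spot was saturated. The number of arrays limits the precision. EV 2 stood apart from its group. On the first principal component of all tested probes, which held 51.8% of the variance, EV 2 scored 74.0 and the other EV arrays between -18.1 and -8.50, while HOTAIR 3 scored 21.1 and the other HOTAIR arrays -29.4 and -21.3. All 7 arrays shared a slide and a scan, with the EV arrays in its first row and the HOTAIR arrays in its second row, so row and group cannot be told apart. Of 14 renal epithelial and tubule markers, 11 were well above background on all 7 arrays, among them PAX8, KRT8, KRT18 and CDH16. CDH1, CDH6 and CA9 were above it on none. Of the markers of other cell types, 1 of 7 fibroblast markers (THY1), 0 of 6 endothelial markers and 2 of 6 leukocyte markers (CD68 and CD14) were detected on every array.

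ACHN cells expressed TGF-beta ligands, receptors for TGF-beta, activin and BMP, most SMADs and 3 of the 4 ID genes, while no BMP ligand of the list was detected. BMP8B, a BMP ligand outside the 49 genes, was detected on all 7 arrays. Of the 49 genes, 34 were well above background on all 7 arrays, and all of these were tested. A further 3 were detected on some arrays, namely TGFB3 on 1 EV and 2 HOTAIR arrays, BMPR1B on 2 EV arrays and 1 HOTAIR array, and SMAD9 on 1 EV array. The remaining 12 were well above background on no array. These were all 5 BMP ligands (BMP2, BMP4, BMP5, BMP6 and BMP7, the last with 3 probes), the activin subunits INHBB and INHBE, the activin-binding protein FST, the latent binding protein LTBP1, the BMP antagonist GREM1, the type I activin receptor ACVR1B and the helix-loop-helix inhibitor ID4. A probe that is not well above background bounds the signal and does not show that the transcript is missing. In bulk RNA, fewer expressing cells and less RNA per cell cannot be told apart.

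**Figure D1:**
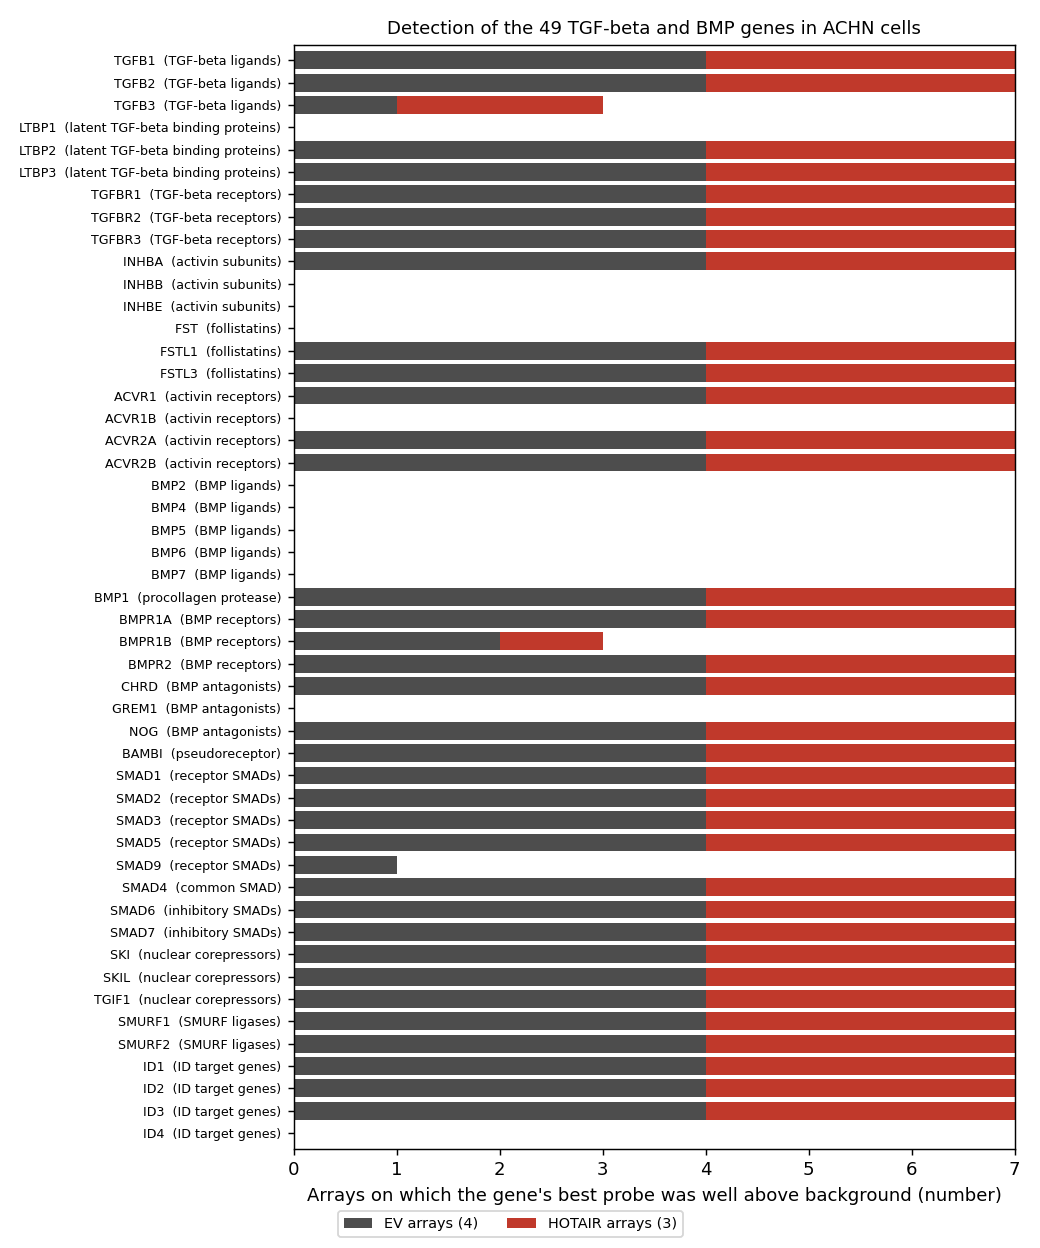
Number of arrays (horizontal axis, of 7) on which the best probe of each of the 49 genes was well above background, with EV arrays in grey and HOTAIR arrays in red; genes are ordered by role. Complete bars mark the 34 genes seen on all arrays, short bars TGFB3, BMPR1B and SMAD9, and rows without a bar the 12 genes seen on none, with all 5 BMP ligands among them.

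None of the 34 tested genes passed the test between HOTAIR and EV (limma, Benjamini-Hochberg adjusted p under 0.05 over all 20419 tested probes). Among all 16664 genes tested the same rule called 30, or 0.18%. At an unadjusted p under 0.05, 3 of the 34 were counted, against 6.11% of all genes. NOG was higher in HOTAIR (3.79% of all genes), and FSTL1 and TGFB2 were lower (2.32% of all genes). The rank product algorithm named in the methods called 0 of the 34, and 74 of all 20419 probes. The HOTAIR arrays lay entirely to one side of the EV arrays for 4 of the 34, or 11.8%, against 8.05% of all genes. NOG was the one on the higher side (4.43% of all genes), and FSTL1, FSTL3 and INHBA were the 3 on the lower side (3.62% of all genes). FSTL3 and INHBA overlapped, which left 2 genes, when the arrays were not scaled or when the percentile was taken over detected probes. INHBA also overlapped with normexp background correction, where ACVR2A and TGFB2 joined the genes that did not overlap. With quantile normalization ID2 and TGFBR1 joined the 4. The share over all genes was not computed under these settings. With an array left out in turn, 4 to 8 of the 34 did not overlap, while the share over all genes rose to between 10.3% and 21.2%. The 8 were reached without HOTAIR 3, where that share was 21.2%.

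The intervals show how large a difference between these arrays could have been missed, given only the spread between them. For 32 of the 34 genes the 95% interval of the difference lay within a 2-fold change in either direction, and this held for 88% of all genes. The exceptions were CHRD (-1.25 to 0.32) and ID3 (-0.30 to 1.32). The median difference, HOTAIR minus EV, was -0.03 over the 34 genes and 0.01 over all genes, and the median absolute difference was 0.11 and 0.13. In all, 13 of the 34 differences were above 0 and 21 below, against 8739 above and 7925 below among all genes. A log2 difference of at least 0.5 in size was found for 2 of the 34 (FSTL1 and ID3) and for 5.65% of all genes.

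**Figure D2:**
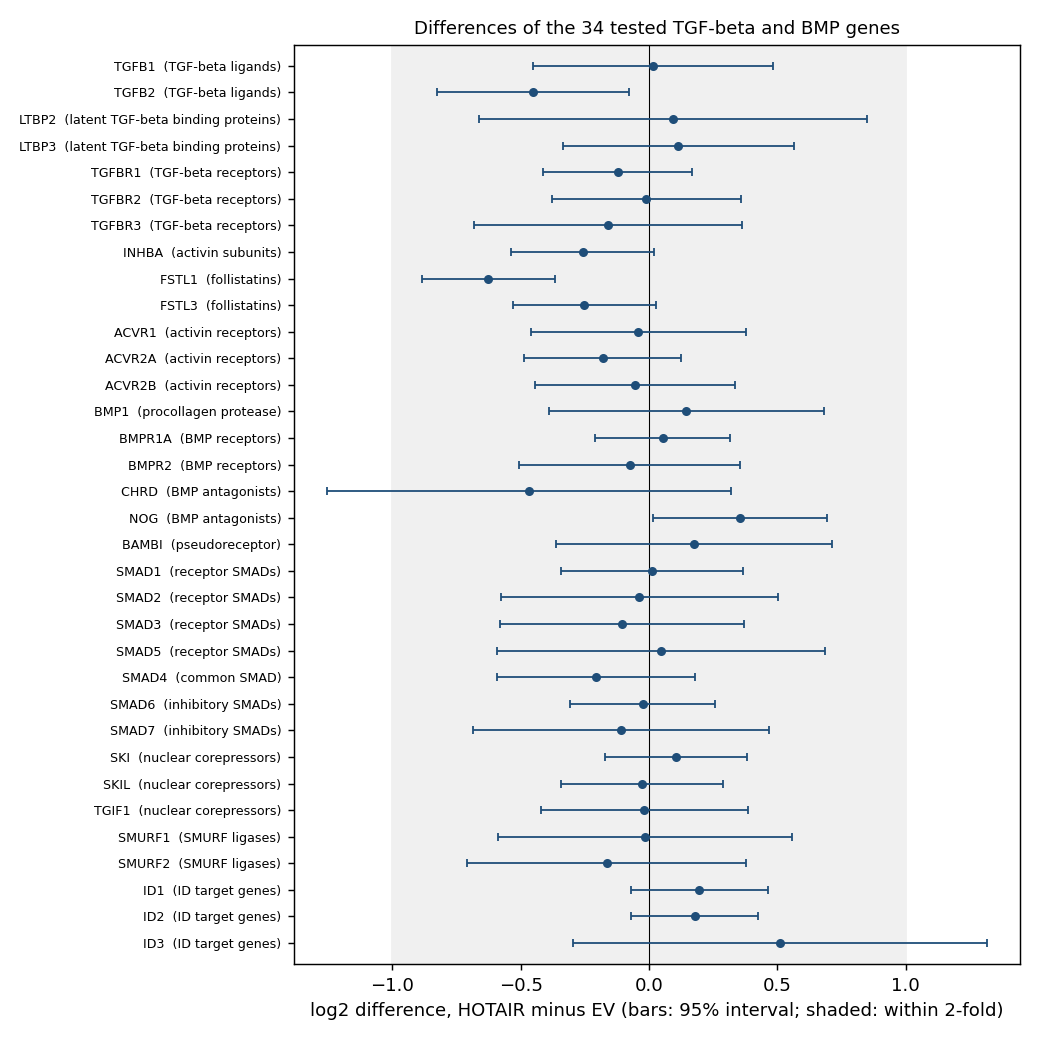
Log2 difference of HOTAIR minus EV (horizontal axis) for each of the 34 tested genes, ordered by role; points are limma estimates from 4 EV and 3 HOTAIR arrays and bars their 95% intervals, and the shaded band marks changes of less than 2-fold. FSTL1 at -0.63, TGFB2 at -0.45 and NOG at 0.36 are the points whose intervals leave 0 out, and the bars of CHRD and ID3 reach beyond the band.

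The array read these genes through probes of 60 bases. The first 30 bases of the probes behind the members whose groups did not overlap are given here in lower case, 5′ to 3′ in the sense of the transcript, with positions on hg19.
FSTL1 (chromosome 3, 120113432 to 120113491, minus strand): cttagcctgcaggcttccttgggctttctc
FSTL3 (chromosome 19, 683145 to 683204, plus strand): taaaccacagcctcagaccagctatgggga
INHBA (chromosome 7, 41729246 to 41729305, minus strand): aaacatcatcaaaaaggacattcagaacat
NOG (chromosome 17, 54672456 to 54672515, plus strand): gcactgtttaactgtgtaggaatgtatatg

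FSTL1, a secreted glycoprotein of the follistatin family, had the largest difference of the 34 genes. Its values were -1.01, -0.78, -0.88 and -0.83 on EV 1 to EV 4, and -1.60, -1.53 and -1.38 on HOTAIR 1 to HOTAIR 3. Every HOTAIR array lay below every EV array. The difference was -0.63 (SE 0.11, 95% interval -0.88 to -0.37), a 1.54-fold lower mean in HOTAIR, and it missed the threshold after correction over all probes (limma adjusted p = 0.128). The exact two-sided permutation test over the 35 ways to choose 3 of 7 arrays gave p = 0.0286, the smallest it can give. Groups that do not overlap give a p-value near this minimum, so the test adds little beyond the lack of overlap. When limma weighted the arrays by their estimated variability, FSTL1 was called (difference -0.63, limma adjusted p = 0.00962). That fit called 324 of all probes in place of 34. Over all 19 alternatives the adjusted p ran from 0.00962 to 0.629 and the difference from -0.69 to -0.54, and the groups stayed apart in each.

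FSTL3, which binds and neutralizes activin, lay at 2.72, 2.96, 2.65 and 2.91 in EV and at 2.64, 2.47 and 2.57 in HOTAIR. The groups did not overlap, but the gap between EV 3 and HOTAIR 1 was narrow. The difference was -0.25 (SE 0.12, limma adjusted p = 0.906). FST, the founding member of the family, was below background on all arrays, its signals lying between -7.48 and -7.19.

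INHBA encodes the subunit of activin A and was the only one detected of the 3 activin subunits among the members. Its values were 4.46, 4.36, 4.59 and 4.71 in EV and 4.26, 4.35 and 4.21 in HOTAIR. HOTAIR 2 and EV 2 almost met, so the separation is slight. The difference was -0.26 (SE 0.12, limma adjusted p = 0.896). The exact permutation test gave p = 0.0571 for INHBA and for FSTL3, again near its minimum because the groups did not overlap. Among the activin receptors, differences were -0.04 for ACVR1, -0.18 for ACVR2A and -0.06 for ACVR2B, the lowest limma adjusted p being 0.979. ACVR1, a type I receptor that serves BMP as well as activin, was read by another probe too, at -0.13.

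**Figure D3:**
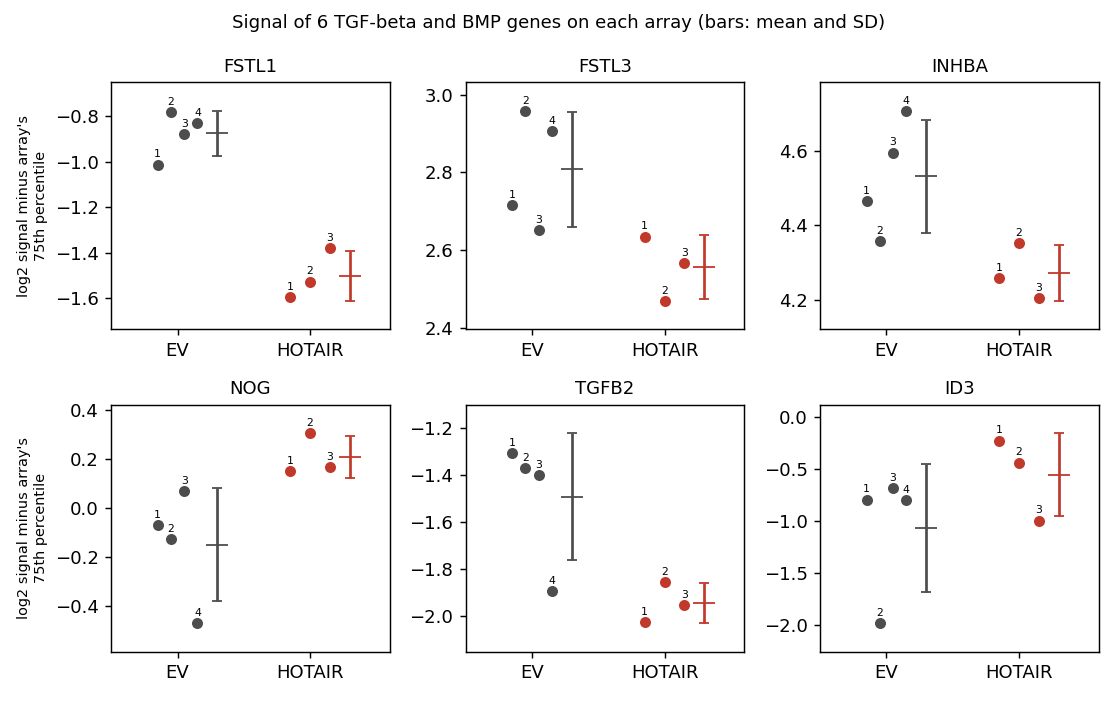
Log2 signal minus the array's 75th percentile (vertical axis, a separate scale in each panel) for 6 genes on the 4 EV arrays (grey) and 3 HOTAIR arrays (red); numbers name the arrays, and bars show the mean and SD of each group. FSTL1, FSTL3, INHBA and NOG do not overlap between groups, while EV 4 lies among the HOTAIR arrays for TGFB2 and EV 2 lies far below the other EV arrays for ID3.

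Of the TGF-beta ligands, TGFB1 differed by 0.02 between the groups (95% interval -0.45 to 0.48). TGFB2 is described here because its unadjusted p was under 0.05, a choice made after its values were seen. It lay at -1.31, -1.37, -1.40 and -1.89 in EV and at -2.03, -1.86 and -1.95 in HOTAIR. EV 4 fell among the HOTAIR arrays and the other EV arrays lay above them. The difference was -0.45 (SE 0.16, limma adjusted p = 0.729, exact permutation p = 0.0857), and it was -0.58 without EV 4 (limma adjusted p = 0.236). TGFB3 was too dim for a test. LTBP2 and LTBP3, of the latent TGF-beta binding protein family, had differences of 0.09 and 0.12. A second LTBP3 probe was below background on all arrays.

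The receptors for TGF-beta were all detected. TGFBR1, the type I receptor, differed by -0.12, TGFBR2, the type II receptor, by -0.01, and TGFBR3, the coreceptor betaglycan, by -0.16, with limma adjusted p of 0.993 for the lowest. The intervals of these 3, which measure only the spread between these arrays, lay within 2-fold, the widest being that of TGFBR3 (-0.68 to 0.36). With quantile normalization TGFBR1 differed by -0.28 and its groups did not overlap (limma adjusted p = 0.78). The receptors for BMP were similar, with 0.05 for BMPR1A and -0.07 for BMPR2. BAMBI, a pseudoreceptor that lacks the kinase and dampens signalling, differed by 0.18 (95% interval -0.36 to 0.72). The protease BMP1, which despite its name is no BMP but cleaves procollagen, differed by 0.15.

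BMPR1A and ID2 carry an uncertainty in the probes. Of the 3 BMPR1A probes, 2 were placed by the array's design on chromosome 11, where RefSeq lists the pseudogene BMPR1AP2, and the brighter of these gave the value above. The third lies in the gene on chromosome 10. Of the 2 ID2 probes, 1 was placed on chromosome 3, where RefSeq lists the pseudogene ID2B. The starts of these probes are shown to tell them apart.
BMPR1A on chromosome 10 (88683898 to 88683957, plus strand): cgtttgtattctacctttgtaaaacagcct
BMPR1A on chromosome 11 (121232348 to 121232407, minus strand): actcttattaggatacaagctgggaacttc
BMPR1A on chromosome 11 (121231113 to 121231172, minus strand): caggcagaaatatttagtatctagtcagta
ID2 on chromosome 2 (8822971 to 8823030, plus strand): aggcttctgaattcccttctgagttaatgt
ID2 on chromosome 3 (62109350 to 62109409, minus strand): gtgaaaccttgttaactctttaattagagt
The chromosome 10 probe of BMPR1A gave a difference of -0.09 and the chromosome 11 probes -0.04 and 0.05, so the sign depended on the probe. For ID2 the probes gave 0.18 and 0.21. How much of each signal came from the gene and how much from the other copy was not tested.

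Among the BMP antagonists, NOG (noggin, which binds BMP ligands and blocks their receptors) lay at -0.07, -0.13, 0.07 and -0.47 in EV and at 0.15, 0.30 and 0.17 in HOTAIR. All HOTAIR arrays lay above all EV arrays, and EV 4 was the lowest. The difference was 0.36 (SE 0.15, 95% interval 0.02 to 0.70), a 1.28-fold higher mean, with a limma adjusted p of 0.824 and an exact permutation p of 0.0571. It was 0.25 without EV 4. Chordin (CHRD) differed by -0.47, but its EV arrays ran from -4.26 to -2.82 and its HOTAIR arrays from -4.27 to -3.69 (limma adjusted p = 0.976). The exact permutation test gave p = 0.343 for CHRD. The difference was -0.23 without EV 2 and -0.71 without EV 1. The other CHRD probe was below background on all arrays.

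The receptor SMADs, which carry the signal from the receptors to the nucleus, were detected except for SMAD9 and had small differences. SMAD2 and SMAD3 differed by -0.04 and -0.10, and SMAD1 and SMAD5 by 0.01 and 0.05. Their intervals lay within 2-fold, the widest being SMAD5 (-0.59 to 0.68). SMAD4, the shared partner, differed by -0.21 (95% interval -0.59 to 0.18). The inhibitory SMADs, which the pathway itself induces, differed by -0.02 for SMAD6 and -0.11 for SMAD7. The corepressors SKI, SKIL and TGIF1 differed by 0.10, -0.03 and -0.02, and the ligases SMURF1 and SMURF2 by -0.01 and -0.16. The lowest limma adjusted p of these genes was 0.992.

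EV 2 was the highest EV array for several SMADs. For SMAD2, EV 2 lay at -1.55 and the other EV arrays between -2.45 and -2.25. For SMAD5, EV 2 lay at -0.12 and the others between -1.19 and -0.61. For SMAD7, EV 2 lay at 1.04 and the others between 0.06 and 0.64. EV 2 was the highest EV array for 21 of the 34 genes and the lowest for 8, so that it was an extreme of its group for 85.3% of them, against 70.7% of all genes tested. Without EV 2 and HOTAIR 3, 10 of the 34 genes did not overlap between the groups, including the 4 that did not overlap with all arrays, where 28.6% of all genes did not. There were 5 on either side (14.7% each), against 14.5% of all genes on the higher and 14.1% on the lower side. On the higher side these were NOG, ID1, ID3, BMPR1A and SKI, and on the lower side FSTL1, FSTL3, INHBA, ACVR2B and SMAD3. None of the 34 was called by limma in that fit.

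**Figure D4:**
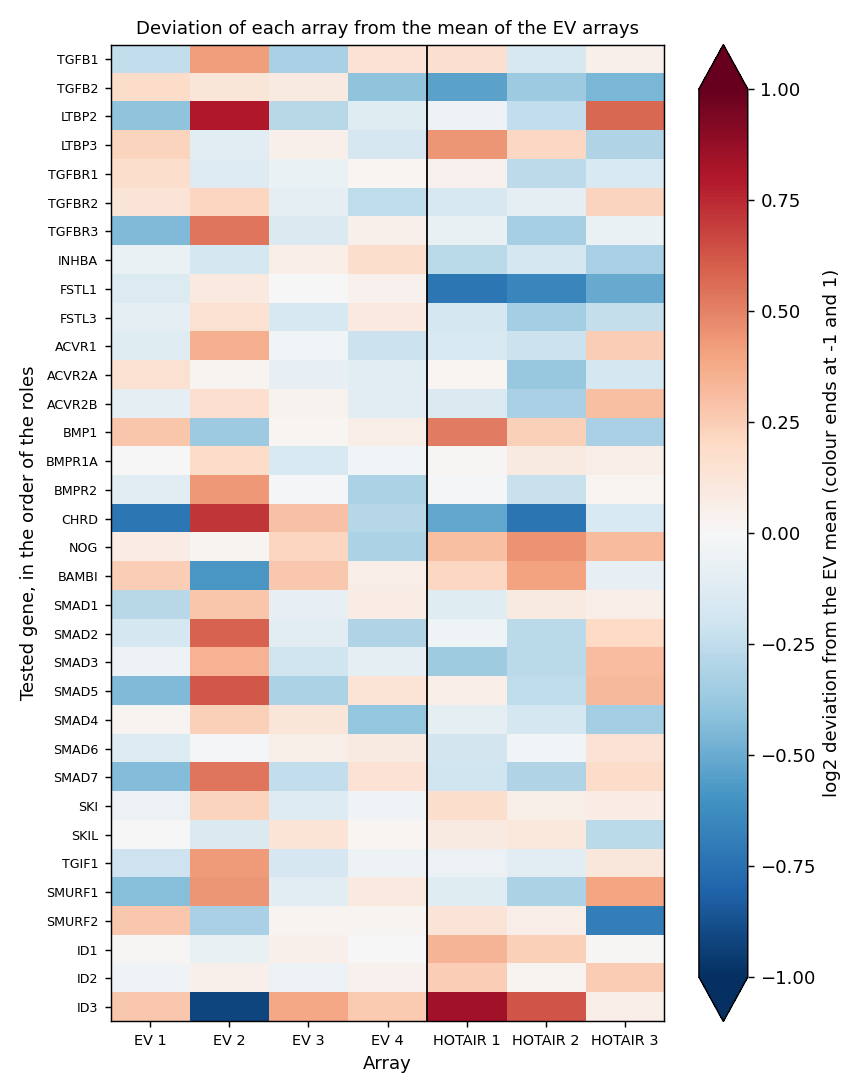
Deviation of each array (columns) from the mean of the 4 EV arrays, in log2 units (colour, ending at -1 and 1), for the 34 tested genes in the order of their roles (rows). FSTL1 is low on all 3 HOTAIR arrays, EV 2 is high for LTBP2, SMAD2, SMAD5 and SMAD7 and low for ID3 and BAMBI, and HOTAIR 3 shares the high values of LTBP2 and SMAD5.

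The ID genes encode helix-loop-helix proteins without a DNA-binding region, and BMP signalling induces them directly. All 3 that were detected had positive differences, and none passed the test. For ID1, HOTAIR 3 fell within the range of the EV arrays. Its difference was 0.20 (95% interval -0.07 to 0.46, limma adjusted p = 0.939). ID2 differed by 0.18 (95% interval -0.07 to 0.43). ID3 lay at -0.79, -1.98, -0.68 and -0.80 in EV and at -0.22, -0.44 and -0.99 in HOTAIR. EV 2 was the lowest array. The difference was 0.51 with all arrays (SE 0.35, limma adjusted p = 0.966, exact permutation p = 0.314) and 0.21 without EV 2.

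SMAD proteins bind the SMAD box CAGAC and GC-rich sites such as GGCGCC. The 250 bases before the gene start are shown for FSTL1, the gene with the largest difference, and for the ID genes, 5′ to 3′ on the strand of the gene, from RefSeq on GRCh38.p14, with matches to either motif on both strands in capitals.
FSTL1 (chr3:120450993-120451242, minus strand): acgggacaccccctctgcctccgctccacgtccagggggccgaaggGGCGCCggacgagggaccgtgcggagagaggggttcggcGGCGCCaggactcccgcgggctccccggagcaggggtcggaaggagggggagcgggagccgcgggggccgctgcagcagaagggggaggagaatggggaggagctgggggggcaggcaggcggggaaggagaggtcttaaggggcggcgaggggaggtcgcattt
ID1 (chr20:31605039-31605288, plus strand): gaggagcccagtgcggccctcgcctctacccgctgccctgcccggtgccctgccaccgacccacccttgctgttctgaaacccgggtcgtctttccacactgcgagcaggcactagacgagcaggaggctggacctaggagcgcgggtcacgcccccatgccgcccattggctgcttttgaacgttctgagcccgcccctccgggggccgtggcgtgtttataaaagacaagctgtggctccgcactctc
ID2 (chr2:8681806-8682055, plus strand): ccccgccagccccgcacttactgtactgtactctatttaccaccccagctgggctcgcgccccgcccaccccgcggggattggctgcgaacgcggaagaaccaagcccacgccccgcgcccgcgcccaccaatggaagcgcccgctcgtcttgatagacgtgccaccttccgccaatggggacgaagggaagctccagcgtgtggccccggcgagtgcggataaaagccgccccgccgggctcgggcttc
ID3 (chr1:23559502-23559751, minus strand): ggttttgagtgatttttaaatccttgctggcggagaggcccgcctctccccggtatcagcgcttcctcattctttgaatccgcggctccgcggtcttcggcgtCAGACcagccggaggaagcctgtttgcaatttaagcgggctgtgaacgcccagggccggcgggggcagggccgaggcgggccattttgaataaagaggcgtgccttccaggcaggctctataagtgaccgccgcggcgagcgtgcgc
In FSTL1 the site GGCGCC occurs at -204 and at -165 from the start, and in ID3 CAGAC occurs at -147, while the windows of ID1 and ID2 hold neither string. Over all 35116 promoters of the table, 38.0% hold CAGAC or GTCTG and 16.4% hold GGCGCC. Of the 49 genes 43 are in the table, with 80 promoters, of which 38.8% and 23.8% hold them. The motifs do not overlap each other, and a match is a description of the letters.

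None of the other genes of the pathway passed the test either. A list of 112 further genes was written with the 49 known, and 111 of them are on the array (TAB1 is not). Of these, 64 were tested and 0 were called, with 1 at an unadjusted p under 0.05 (HEY1, higher in HOTAIR), again beside 0.18% and 6.11% of all genes. Rank product called none of the 64, and 74 of all tested probes. The median difference was -0.03. The groups did not overlap for 3 of the 64 (HEY1 higher, GDF1 and RBL1 lower), or 4.69%, against 8.05% of all genes. These 3 names were chosen after their values were seen. RBL1 was read by another tested probe too, which differed by -0.03 and whose groups overlapped.

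Among the target genes of TGF-beta, 23 of 28 were tested, with differences between -0.48 and 0.27. CTGF, a matricellular protein, differed by 0.14, TGFBI, an extracellular adhesion protein, by -0.12, and the transcription factor KLF10 by -0.09. The widest of these 3 intervals was that of TGFBI (-0.41 to 0.17). PMEPA1, which feeds back on the receptor SMADs, differed by -0.16. JUNB lay at -5.23 on EV 2 and between -3.19 and -3.04 on the other EV arrays, and its difference was 0.27 (95% interval -1.10 to 1.64), which reaches beyond a 2-fold change on either side. THBS1, a secreted activator of latent TGF-beta from the list of extracellular regulators, differed by -0.32 (95% interval -0.65 to 0.01, limma adjusted p = 0.878). Another THBS1 probe gave -0.13 (95% interval -1.01 to 0.76).

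Of the 9 BMP target genes, 4 were tested and MSX2 was below background on all arrays. HEY1, a repressor that Notch induces as well as BMP, had the largest difference of the 64. Its values were -4.88, -4.71, -4.90 and -5.81 in EV and -4.37, -4.08 and -3.85 in HOTAIR, all HOTAIR arrays lying above all EV arrays. The difference was 0.97 (SE 0.27, limma adjusted p = 0.50). With normexp background correction it was 0.29, and over the 19 alternatives the adjusted p ran from 0.0627 to 1.00. Of the 22 other ligands of the family, 13 were below background on all arrays, NODAL and both LEFTY genes among them. The 5 that were tested were AMH, BMP8B, GDF1, GDF11 and GDF15. BMP8B was well above background on all 7 arrays by 1 probe, with a difference of -0.13, and on none by another. All 22 intracellular regulators on the array were tested, and their differences lay between -0.22 and 0.17.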

How the data were processed

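RNA of 7 samples of ACHN cells (EV, 4 samples; HOTAIR, 3 samples) was labelled with Cy3 and hybridised to single-colour Agilent human arrays, 1 sample per array. Images had been read with Feature Extraction 10.7.3.1 according to the submitters' processing notes. The deposited scanner files give each spot a background-subtracted, linear processed intensity and mark outliers and signals well above background. A deposited table of intensities held the same values without scaling between arrays, all 440783 cells lying within 0.498% of them. Groups and sample numbers came from the sample titles.

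Processed intensities were put on the log2 scale, and each array was scaled by subtracting its 75th percentile, computed from 58717 spots without the controls. Outlier spots (408 to 600 per array) were left out, and repeated spots of a probe were averaged. Values compare samples for a probe and not different probes. A probe entered the test if it was well above background on all arrays of EV, of HOTAIR or of both. This left 20419 probes for 16664 genes, each gene being read by its brightest probe. HOTAIR and EV were compared with limma 3.58.1 in R 4.3.3 (two-sided, Benjamini-Hochberg over all tested probes), and the code was tested on simulated data. Single genes were also given the exact permutation test over the 35 ways to choose 3 of 7 arrays, whose smallest p is 0.0286. Groups that do not overlap give values near that minimum. The Mann-Whitney test of the methods cannot go below 0.0571 here. The 95% intervals are those of limma.

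Members described by the value on every array are those whose groups did not overlap or whose log2 difference was at least 0.5 in size, and TGFB2, which was added after its values were seen. Of the other pathway genes, those with an adjusted p under 0.05 or a difference of at least 1 were to be named, and CTGF, TGFBI, PMEPA1, JUNB, KLF10, THBS1 and MSX2 in any case. A further gene of that rule is not reported here. The members and lists were chosen with earlier results of these data known. Accessions of 58 of the 60 member probes were found in RefSeq (GRCh38.p14), all under the same symbol. Positions of probes are those of the array's design on hg19, and those of promoters are on GRCh38.p14. Alternatives covered the background correction, the scaling, the filter, the deposited table, each array left out in turn, EV 2 and HOTAIR 3 left out together, the sample number as a block, the moderation, array weights, the mean over probes and rank product with 100 permutations.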

Additional observations from a re-analysis of the deposited data

Results flagged for a closer look

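The 4 EV arrays of each of 41 genes were checked for a lone array, and for 3 genes the gap between the outermost array and its neighbour exceeded 0.829 of the range, where chance gives 2.05. ID3 had its lone value on EV 2, at -1.98, while EV 1, EV 3 and EV 4 lay between -0.80 and -0.68, so that the gap took up 0.909 of the range. JUNB had its lone value on EV 2 too, at -5.23 against -3.19 to -3.04, or 0.935 of the range. TGFB2 had its lone value on EV 4, at -1.89 against -1.40 to -1.31, or 0.844 of the range. What set these arrays apart was not tested.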

How the results depend on the processing

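No tested member was called under any alternative except array weights, where 1 was (FSTL1, difference -0.63, limma adjusted p = 0.00962), and no other pathway gene was called under any. Over all probes limma called 34, and the count was 12 with normexp background correction, 14 without a filter, 22 with probes well above background on all arrays, 20 with trend and robust moderation, 324 with array weights, 74 by rank product and 9 to 30 with an array left out. With the sample number as a replicate block it was 0, and FSTL1 then had a difference of -0.61 (limma adjusted p = 0.629). Neither the labels nor the methods say whether the numbers pair the samples. The deviations of samples that share a number correlated at 0.386, -0.368 and -0.406. EV 1 correlated with HOTAIR 2 at 0.392, and EV 2 was closest to HOTAIR 3 (0.619). EV 2 and HOTAIR 3 also scored highest on the first principal component, which held 51.8% of the variance. The correlations may mostly reflect these arrays and cannot decide whether the samples were paired. The number of members whose groups did not overlap was 4, and it was 2 with the 75th percentile over detected probes, 2 with the deposited table, 10 without EV 2 and HOTAIR 3 (28.6% of all genes), and 4 to 8 with an array left out (10.3% to 21.2% of all genes, the last without HOTAIR 3).

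Recomputed differences of members kept their direction and their side of the threshold in 577 cases and changed sign in 68, all in genes whose difference was at most 0.18 in size. The cause of these sign changes was not tested. With normexp they were BMPR1A (-0.019), SMAD6 (0.0037) and TGIF1 (0.019), with quantile normalization TGFBR2 (0.026) and TGIF1 (0.0037), and with the percentile over detected probes TGFBR2 (0.011), TGIF1 (0.0048) and SMURF1 (0.0078). The deposited table turned TGFBR2 (0.032), ACVR1 (0.0013), SMAD2 (0.0056), SMAD6 (0.020), SKIL (0.018), TGIF1 (0.025) and SMURF1 (0.031). Leaving out EV 2 and HOTAIR 3 turned BMPR2 (0.025), SMAD2 (0.041), SKIL (0.047) and TGIF1 (0.059). The replicate block turned SMAD6 (0.0064) and SMURF1 (0.019), array weights TGIF1 (0.066), and the mean over probes BMPR1A (-0.024). JUNB, a target gene outside the members with a difference of 0.27, was at -0.012 with array weights. With an array left out in turn the differences ran from -0.091 to 0.16 for TGFB1, -0.15 to 0.36 for LTBP2, -0.048 to 0.32 for LTBP3, -0.13 to 0.064 for TGFBR2, -0.30 to 0.020 for TGFBR3, -0.18 to 0.079 for ACVR1, -0.23 to 0.079 for ACVR2B, -0.041 to 0.38 for BMP1, -0.18 to 0.071 for BMPR2, -0.017 to 0.30 for BAMBI, -0.079 to 0.11 for SMAD1, -0.16 to 0.16 for SMAD2, -0.31 to 0.020 for SMAD3, -0.10 to 0.25 for SMAD5, -0.11 to 0.057 for SMAD6, -0.25 to 0.071 for SMAD7, -0.092 to 0.095 for SKIL, -0.086 to 0.13 for TGIF1, -0.22 to 0.14 for SMURF1, -0.31 to 0.10 for SMURF2 and -0.26 to 0.65 for JUNB.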
